A study of Homo sapiens with 2 samples.

Results

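Axon guidance ligands and receptors were followed in a human glioblastoma line with and without forced expression of the microRNA miR-127-3p. Members were all probe sets annotated to exactly 1 gene symbol of the Eph, ephrin, semaphorin, plexin, neuropilin, Slit, Robo, netrin or UNC5 names. This gave 179 probe sets of 75 genes, among 41091 probe sets of 19775 genes with 1 symbol. Of the 75 genes, 69 are guidance genes. The other 6 carry a matching name only: the antisense RNAs EPHA1-AS1, EPHA2-AS1, EPHA5-AS1 and UNC5B-AS1, together with UNC50 and UNC5CL, which are not netrin receptors.

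Guidance cues are secreted or membrane-bound proteins that steer growing axons and migrating cells by attraction or repulsion. Ephrins are membrane-anchored ligands of the Eph receptor tyrosine kinases, and both partners can signal into the cell that carries them. Semaphorins signal through plexins, with neuropilins as co-receptors for most of the secreted class. Slits act through Robo receptors, and netrins through DCC and the UNC5 receptors. Many of these proteins are also known from glioma cells, where they have been studied for their part in adhesion and migration.

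LN229 cells, an established line, were grown in DMEM with serum. The miR-127-3p culture carried the plasmid pSUPER.neo with miR-127-3p, and the control culture carried pSUPER.neo alone. Both therefore share the vector. Each culture was measured on 1 Affymetrix 3′ expression array, so there were 2 arrays, no replicates and no test, and no difference given here has been checked against variation between cultures. Whether the cells were a pool or a clone is not stated in the labels. The study asked which genes this microRNA regulates in a glioblastoma line.

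The sequence of the overexpressed strand is shown because it is the only factor by which the labels tell the cultures apart. It is the RefSeq entry on GRCh38.p14, chr14:100883035-100883056, plus strand, and capitals mark the seed, bases 2 to 8, which pairs with target transcripts.
hsa-miR-127-3p: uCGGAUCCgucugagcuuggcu
The arrays gave no measurement of this mature strand that was used here, and no transcript sequence was searched for seed matches.

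Signals are in arbitrary units on a linear scale, and pairs of signals are given with miR-127-3p first and the control second. The array medians were 83.3 (miR-127-3p) and 93.9 (control), and 2% trimmed means were 500.1 on each. A probe set was kept if its mean log2(signal + 1) over both arrays exceeded the median of all probe sets, equivalent to a signal of 83.0, and the brightest kept probe set stood for its gene. Ratios are log2 differences, miR-127-3p minus control, centred on the median over all genes, and folds are these differences on the linear scale. Within a gene, ratios of the 2 brightest kept probe sets had a standard deviation of 0.41 per probe set, from 5974 genes. This measures disagreement within the arrays and not between cultures, and it leaves out dimmer probe sets of a gene.

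The label of the line was set against its markers. Of 14 astroglial and glioma markers, 11 were above the filter, among them VIM, S100B, SOX2, NES and FABP7, while GFAP was below the median on both arrays, with signals of 14.9 (miR-127-3p) and 34.2 (control). SLC1A3, a glutamate transporter of astrocytes, had signals of 2689 (miR-127-3p) and 73.9 (control), the former higher by at least 28.1-fold. It passed the filter through its miR-127-3p signal alone, so a higher value followed from passing. SOX2 and NES were at least 2-fold lower, and the summed signals of the list were 88771 and 83637. Most of these sums came from VIM, with 48866 and 45584, and CD44, with 22904 and 16408. Epithelial markers differed most in their sum. All 5 members of that list above the filter were lower with miR-127-3p by 2-fold or more, where 8.67% of all genes were. KRT19, EPCAM and ESRP1 among them were under the miR-127-3p array median and passed the filter through their control signals alone. For these, a lower value followed from passing. KRT8 and KRT18, above both array medians, were 55.4-fold and 6.55-fold lower. Below the filter, CDH1 gave 7.05 (miR-127-3p) and 775 (control), at least 9.28-fold lower. CLDN4 gave 22.4 against 201, at least 2.42-fold lower. GRHL2, under both array medians, went the other way, with 39.8 (miR-127-3p) and 16.1 (control). The summed signal of the 10 measured members of the list was 7355 against 85923. Of the same 10, 2 exceeded the median of the miR-127-3p array and 7 that of the control array. In the endothelial list, the only member above the filter was PECAM1, and summed signals were 415 and 441. In the haematopoietic list, sums were 238 and 247. Fibroblast sums were 10747 and 9796, of which LUM alone gave 8320 and 7725. Within that list, at the brightest probe sets, COL1A1 was 3.86-fold lower and DCN 2.22-fold higher. The other COL1A1 probe sets above the filter had log2 ratios of -0.42 and -0.04, and those of DCN ran from 0.10 to 1.16. Neuronal sums were 16618 and 11073, of which TUBB3 gave 10736 and 7914. The part of any of these in the guidance gene differences was not tested. In a bulk culture, fewer cells of a type and less RNA per cell cannot be told apart.

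Of the 75 genes, 44 were above the filter, which is 58.7% against 60.6% of all genes. The Eph receptors EPHA3, EPHA4 and EPHB3, the secreted semaphorins SEMA3F and SEMA3G, the membrane semaphorin SEMA4G and the plexin PLXNB1 were lower with miR-127-3p by 2-fold or more. The netrins NTN4 and NTNG1, the semaphorin SEMA6B and the plexin PLXNA2 were at least 2-fold higher. These 7 lower genes are 15.9% of the 44, where 8.67% of all 11985 genes above the filter were lower by that much. The 4 higher genes are 9.09%, where 5.06% of all genes were higher. SEMA3G passed the filter through its control signal alone, so a lower value followed from passing. With signals under an array median set to that median, 6 of the 44 were lower and 4 higher, where 8.04% and 4.63% of all genes were. The median log2 ratio of the 44 was -0.06, where that of all genes is 0 by construction. With each array scaled by its 75th percentile the median turned to 0.02, beside 0.08 for all genes. Leaving out the 6 genes matched by name only, of which UNC50 alone was above the filter, the median was -0.07.

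**Figure D1:**
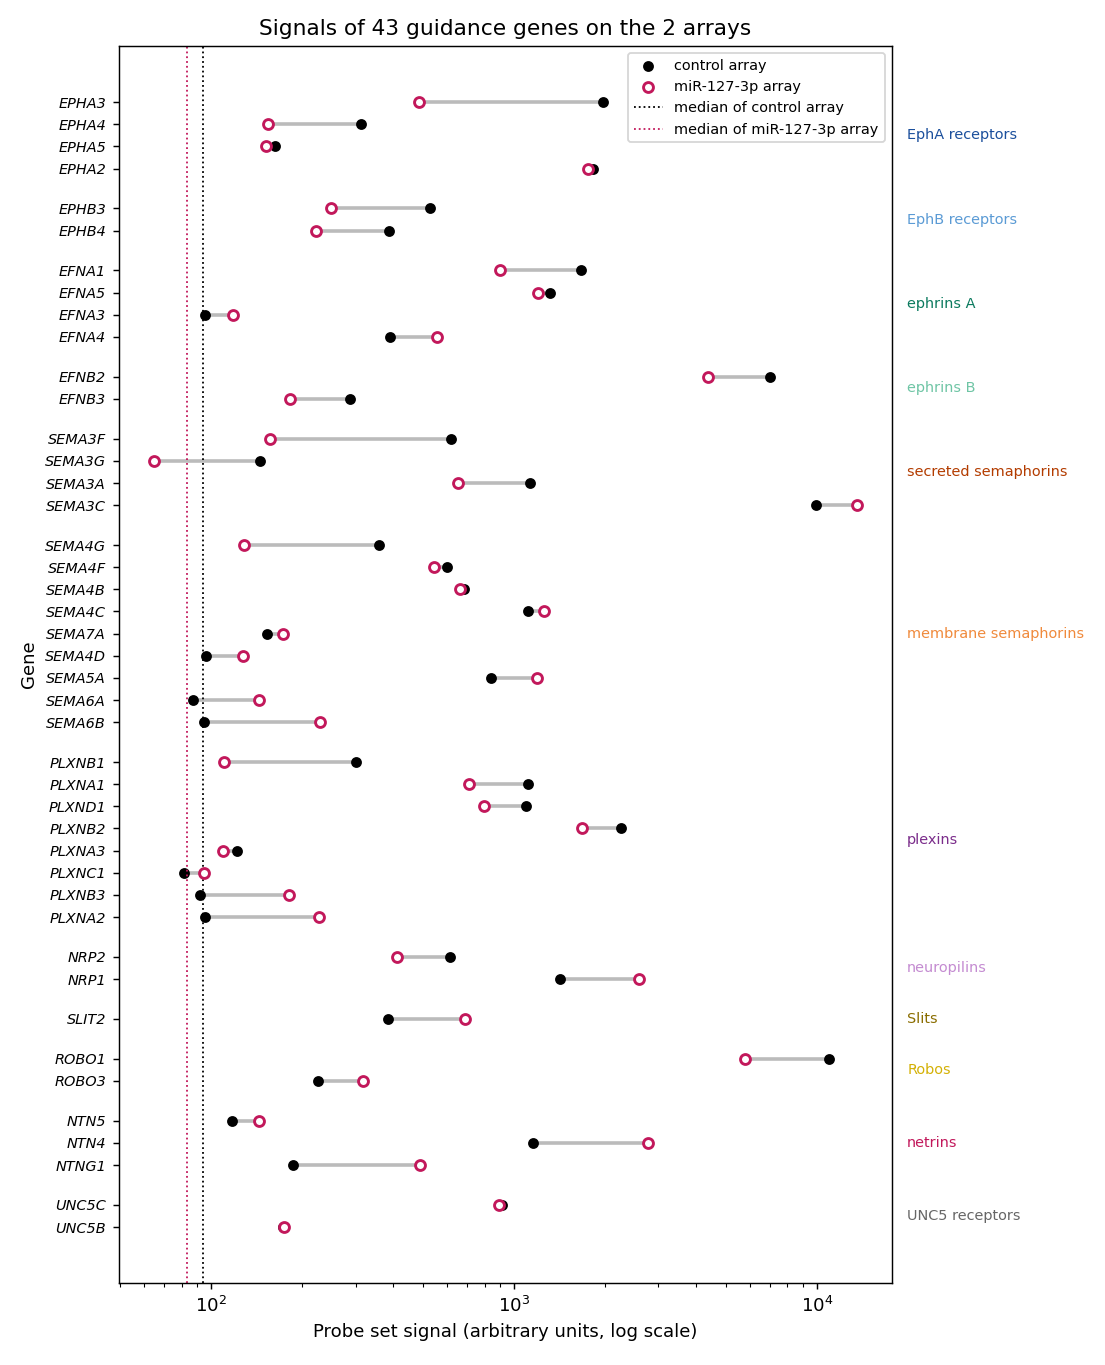
Signal of the chosen probe set (arbitrary units, log axis) for the 43 guidance genes above the filter, by family, with filled points for the control array and open points for the miR-127-3p array; dotted lines are the array medians and there is 1 array per group. The Eph receptors have their open points to the left of or on the filled ones and the netrins to the right, while several semaphorins and plexins with small signals lie close to the medians, and for UNC5B the points coincide.

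Ligands and receptors were counted apart. Of 23 ligands above the filter, from 37, 3 were higher and 3 lower by 2-fold or more, with a median of 0.16. Of 20 receptors and co-receptors, from 32, 1 was higher and 4 lower, with a median of -0.30. Beside these counts, 5.06% of all genes were higher and 8.67% lower by 2-fold or more. Of all 11985 genes above the filter, 5992 had ratios below 0, which follows from the median centring. Ratios below 0 were counted for 15 of the 20 receptors and 10 of the 23 ligands. The difference between the receptor and ligand shares was not tested, nor was that of either from all genes. Several of these ratios are close to 0, and the signs of EPHA2, EPHA5, PLXNA3, SEMA4B, UNC5B and UNC5C turned under at least 1 other scaling of the arrays.

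Eph receptors above the filter all had ratios below 0, with a median of -0.92 over 6 genes of 13. EPHA3, a receptor that binds ephrin-A5 and is known from glioblastoma, gave a signal of 486 under miR-127-3p overexpression against 1974 without it. Its log2 ratio was -2.03, a 4.08-fold lower value, and this was the lowest ratio among the 44 members. It rests on 1 probe set above the filter, which carries a cross-match suffix. Its 2 other probe sets were below both array medians.

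EPHA4, a receptor that takes ephrins of both classes, gave 154 (miR-127-3p) and 312 (control). The log2 ratio of -1.03 lay just past 2-fold, and its other probe sets above the filter were at -0.85 and -0.53. The call was lost under 7 of 13 alternatives, where the ratio reached -0.80. EPHB3, a receptor for B-class ephrins best known from the intestinal crypt, gave 248 against 527, a log2 ratio of -1.10. Its second probe set gave 61.9 against 296. The first of these signals is under the array median, so this probe set was at least 3.55-fold lower.

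EPHB4, the vascular receptor of ephrin-B2, gave 222 (miR-127-3p) and 386 (control), a log2 ratio of -0.81. Its second probe set gave 70.3 against 142, at least 1.71-fold lower. EPHA2, the main receptor of ephrin-A1 and a target studied in glioma, gave 1752 against 1822, which is within 2-fold at a log2 ratio of -0.07. EPHA5 gave 152 against 163, a ratio of -0.12. EPHA2 turned to 0.01 with 75th percentile scaling, and EPHA5 turned to 0.03 with quantile normalization and to 0.0049 with the loess trend removed. The other 4 receptors stayed below 0 under every scaling tried.

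The 7 Eph receptors below the filter were EPHA1, EPHA6, EPHA7, EPHA8, EPHA10, EPHB1 and EPHB6. For the first 6 of these, every probe set was below the median of both arrays. EPHB6, a family member without kinase activity, differed from them. It gave 17.1 (miR-127-3p) and 374 (control) at its only probe set. With the array median in place of the dim signal, this is at least 4.48-fold lower.

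Ephrins stayed within 2-fold wherever they passed the filter. EFNA1, which encodes the ligand ephrin-A1, gave 897 (miR-127-3p) and 1664 (control), a log2 ratio of -0.90, while its receptor EPHA2 was at -0.07. EFNA5, the ligand of EPHA3, gave 1204 against 1313, a ratio of -0.14, with a spread from -0.14 to 0.62 over its 3 probe sets above the filter. EFNA4 gave 557 against 389 and EFNA3 gave 119 against 95.3, with ratios of 0.51 and 0.30. In the RefSeq gene table, EFNA4, EFNA3 and EFNA1 are consecutive coding genes of chromosome 1, and EFNA1 alone of the 3 had a ratio below 0.

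EFNB2, which encodes the ligand of EPHB4, gave 4378 (miR-127-3p) and 7026 (control). Its log2 ratio was -0.69, and both probe sets gave that value. EFNB3 gave 182 against 288, a ratio of -0.67. Both B ephrins were thus lower by similar amounts and short of 2-fold. EFNB1 was below the filter, with 26.0 against 94.5.

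EFNA2 showed a large difference at a single probe set. One of its 3 probe sets gave 7.03 (miR-127-3p) and 589 (control), which is at least 7.05-fold lower against the array median. The mean filter left this probe set out, and the remaining probe sets of EFNA2 gave 10.9 against 2.65 and 31.8 against 11.8, below the median on both arrays. These probe sets do not show a common value for the gene.

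Of 4 secreted semaphorins above the filter, 3 had ratios below 0, where 5992 of all 11985 genes did. Of the 4, 2 were lower by 2-fold or more, where 8.67% of all genes were. With signals under an array median set to that median, SEMA3F alone stayed past 2-fold, where 8.04% of all genes were lower. SEMA3F, a repellent that signals through NRP2, gave 157 (miR-127-3p) and 619 (control), a log2 ratio of -1.99 and a 3.96-fold lower value. Its 2 other probe sets were below both medians. SEMA3G, another NRP2 ligand, gave 64.7 against 145. Its signal with miR-127-3p was under the array median, so the difference is at least 1.74-fold, and its call was lost under 5 of 12 alternatives.

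SEMA3A, the founding collapsin that acts through NRP1 and A plexins, gave 654 (miR-127-3p) and 1134 (control), a log2 ratio of -0.80. Its other probe sets had miR-127-3p signals under the array median, with 60.0 against 153 and 73.3 against 226, and were at least 1.84-fold and 2.71-fold lower. The mean over all 3 was -1.26, or -1.04 with the dim signals at the array median, while the chosen probe set was within 2-fold. SEMA3C differed in direction from these 3 genes. It gave 13543 against 9948, a ratio of 0.43, and 0.59 at its second probe set. SEMA3B, SEMA3D and SEMA3E were below both array medians at all their probe sets with 1 symbol.

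Membrane semaphorins lay on both sides of 0, with a median of 0.16 over 9 genes of 13. SEMA4G gave 129 (miR-127-3p) and 359 (control), a log2 ratio of -1.49. SEMA6B gave 228 against 94.7, a ratio of 1.25. The SEMA6B probe set carries a cross-match suffix, its control signal was close to the array median, and its other 2 probe sets were below both medians. SEMA6A gave 144 against 87.2, at least 1.52-fold higher, but another probe set of it, under the filter, gave 42.8 against 137, at least 1.65-fold lower.

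SEMA5A, a semaphorin with thrombospondin repeats, gave 1192 (miR-127-3p) and 843 (control). Its 3 probe sets lay between 0.39 and 0.51. SEMA4D, the ligand of PLXNB1, gave 128 against 96.5, a log2 ratio of 0.39. SEMA7A, a GPI-anchored ligand of PLXNC1, was at 0.16. SEMA4B and SEMA4F were at -0.05 and -0.15. These genes stayed within 2-fold.

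SEMA4C differed in size between its 2 probe sets. The chosen probe set gave 1253 (miR-127-3p) and 1117 (control), a log2 ratio of 0.15. The other gave 307 against 21.8, at least 3.23-fold higher against the array median, and the mean filter left it out. SEMA4A, SEMA5B, SEMA6C and SEMA6D were below the filter.

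Among plexins, the receptors of semaphorins, 8 of 9 were above the filter. PLXNB1, the receptor of SEMA4D, gave 111 (miR-127-3p) and 302 (control), a log2 ratio of -1.45. This rests on 1 probe set above the filter, which carries a cross-match suffix, and its other probe set was below both array medians. PLXNA2, a receptor of class 3 and class 6 semaphorins, gave 228 against 95.5, a ratio of 1.23, and its second probe set gave 183 against 43.6, at least 1.92-fold higher. Thus PLXNB1 was lower while its ligand SEMA4D was at 0.39, and PLXNA2 and SEMA6B were both higher. Control signals of PLXNA2 and SEMA6B were both close to the array median.

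PLXNB3 gave 181 (miR-127-3p) and 92.2 (control) and was at least 1.90-fold higher. PLXNB2, PLXND1 and PLXNA3 had log2 ratios of -0.43, -0.48 and -0.17, and a second probe set of PLXND1 was at -1.30. PLXNA1 gave 714 against 1117, a ratio of -0.66, but its second probe set gave 263 against 185, a ratio of 0.50, so its direction depends on the probe set. PLXNC1 gave 94.5 against 81.4, both near the array medians. PLXNA4 was below both medians at all probe sets.

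Neuropilins differed in opposite directions. NRP1, the co-receptor of SEMA3A, gave 2580 (miR-127-3p) and 1418 (control), a log2 ratio of 0.85, and 0.31 at its second probe set. NRP2, the co-receptor of SEMA3F, gave 411 against 617, a ratio of -0.60. All 9 NRP2 probe sets above the filter were below 0. The lowest gave 55.1 against 219, at least 2.63-fold lower since the first signal is under the array median. The one nearest 0 gave 319 on both arrays, so its sign rests on the median centring. SEMA3F, SEMA3G and NRP2 were therefore all lower with miR-127-3p, whereas SEMA3A was lower and NRP1 higher. Neither neuropilin reached 2-fold at its chosen probe set.

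**Figure D2:**
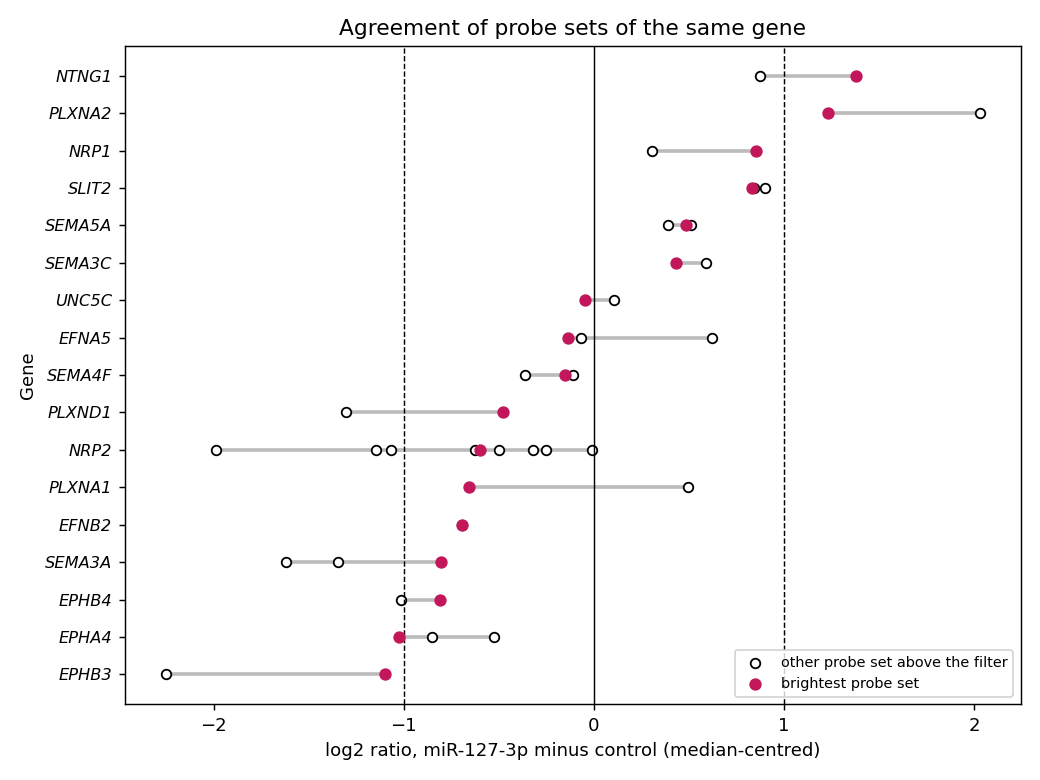
Log2 ratio, miR-127-3p minus control, of every probe set above the filter for the 17 members with more than 1, with the brightest probe set filled and dashed lines at 2-fold; signals under an array median are plotted as measured. In 14 genes all probe sets lie on the same side of 0, EFNA5, PLXNA1 and UNC5C cross it, the EFNB2 points coincide, and NRP2 spans -1.98 to -0.01, the last with a sign that rests on the median centring.

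For Slits and Robos, the ligand was higher and its main receptor lower. SLIT2, a secreted repellent, gave 690 (miR-127-3p) and 384 (control). Its log2 ratio was 0.83, with all 3 probe sets between 0.83 and 0.90. ROBO1, the receptor of SLIT2, gave 5787 against 10957, a ratio of -0.93. Neither passed 2-fold, and ROBO1 just passed it with the loess trend removed.

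ROBO3, a divergent member that regulates crossing of the midline, gave 318 (miR-127-3p) and 225 (control), a log2 ratio of 0.48. ROBO4, an endothelial Robo that neighbours ROBO3 in the gene table, was below both medians, as was ROBO2, the neighbour of ROBO1. SLIT1 and SLIT3 were below both medians too. SLIT2 was thus the only Slit above the filter.

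NTNG1 had the highest ratio among the 44 members. This gene, which encodes a GPI-anchored netrin of the neuronal surface, gave 491 (miR-127-3p) and 187 (control), a log2 ratio of 1.38, and its second probe set gave 145 against 78.0, at least 1.53-fold higher. NTN4, a netrin that binds laminin in basement membranes, gave 2763 against 1153, a ratio of 1.25, at 1 probe set. NTN5 was at 0.28, within 2-fold, and its other probe set was below both array medians with 40.4 against 76.3.

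NTN1, which encodes the founding netrin, was below the filter. Its 3 probe sets gave 1.08 against 41.4, 29.2 against 60.4 and 95.1 against 27.2, and the last alone was above the array median, with miR-127-3p. NTN3 and NTNG2 were below both medians. The UNC5 receptors differed little. UNC5C gave 895 (miR-127-3p) and 917 (control), a log2 ratio of -0.05, and UNC5B gave 174 against 173, a ratio of -0.0026. UNC5A and UNC5D were below both medians.

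Of the genes matched by name only, UNC50 gave 3088 (miR-127-3p) and 2063 (control), a log2 ratio of 0.57. UNC5CL, a relative of UNC5C, gave 11.5 against 242 and was at least 2.91-fold lower. The 4 antisense RNAs were below the filter. EPHA5-AS1 alone of them passed an array median, with 108 in the control and 42.6 with miR-127-3p.

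At the level of probe sets, 74 of 179 were above the filter. Of these, 15 were at least 2-fold lower, or 20.3%, where 8.08% of all probe sets above the filter were, and 5 were at least 2-fold higher, or 6.76%, where 5.28% were. With signals under an array median set to that median, 12 were lower and 4 higher, where 7.32% and 4.47% of all were. Probe sets of a gene share its transcripts, and NRP2 alone gave 9. Of the 105 below the filter, 14 were above the median of 1 array. Against that median 3 of the 14 were at least 2-fold lower, those of EFNA2, EPHB6 and UNC5CL, where 12.6% of all such probe sets were, and that of SEMA4C was higher, where 2.27% were. A further 91 probe sets were below both medians. They leave 21 of the 69 guidance genes with no probe set above an array median.

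**Figure D3:**
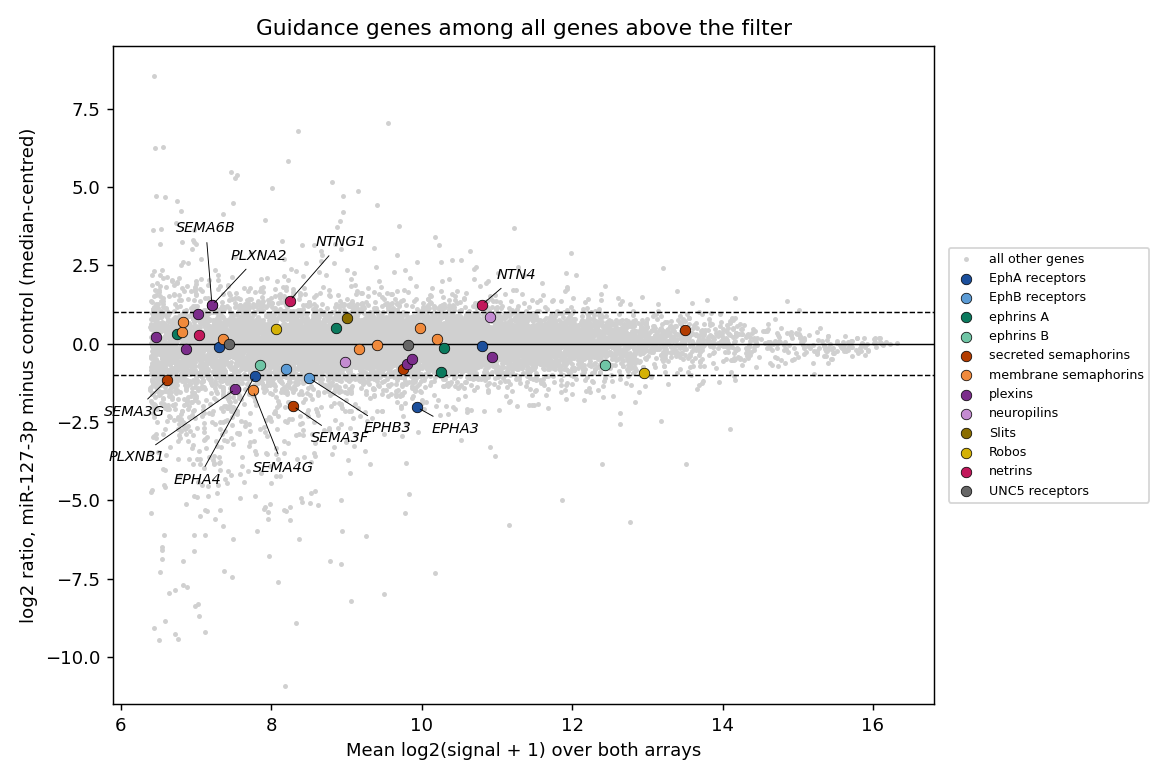
Log2 ratio, miR-127-3p minus control, against mean log2(signal + 1) over both arrays for all 11985 genes above the filter (grey) and the 43 guidance genes by family (colour), with dashed lines at 2-fold and the 11 members past it named. The guidance genes run from -2.03 to 1.38, inside the range of the other genes, which reaches -10.91 and 8.54.

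Promoter windows were searched because EPHB3 is known as a Wnt target gene, and such genes carry TCF/LEF sites. RefSeq windows on GRCh38.p14, from 250 bases before to 50 after the start, were found for 58 of the 69 guidance genes, 91 windows in all. The letters CTTTGAT, or ATCAAAG on the opposite strand, occurred in 3 of the 91 windows, or 3.30%, and in 2.62% of all 35116 windows. None of the 24 windows of Eph and ephrin genes held them. The E-box letters CAGGTG or CACCTG occurred in 15 of the 91, or 16.5%, and in 20.6% of all windows. The matches upstream of the start in members past 2-fold are shown, 5′ to 3′ along the gene, with the motif in capitals. They are matches of letters and no evidence of a bound site.
SEMA3F TCF/LEF, chr3:50158961-50158987, plus strand: gtctctcctgCTTTGATtttagtacaa
SEMA4G TCF/LEF, chr10:100972484-100972510, plus strand: ccacatacagATCAAAGggcttttttt
SEMA3F E-box, chr3:50154911-50154936, plus strand: ggcccacggaCAGGTGgagcgggggc
SEMA3G E-box, chr3:52445194-52445219, minus strand: ggagaagcggCAGGTGgacggcaagg
The SEMA3F matches lie in windows of different start sites of that gene. The third TCF/LEF window was that of SEMA6D, which was below both array medians.

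Other genes of the guidance pathways were taken from lists. Of 26 further cues and co-receptors, 14 were above the filter. Of these, 2 were at least 2-fold higher and 4 lower, where 5.06% and 8.67% of all genes were. Of the cell adhesion molecules of the L1 family, CHL1, NRCAM and NFASC had ratios below 0 and L1CAM a ratio above 0. CHL1 gave 61.6 (miR-127-3p) and 409 (control), a log2 ratio of -2.72, or at least 4.90-fold lower, and NRCAM gave 602 against 1685, a ratio of -1.50. NFASC was at -0.80, and at -1.77 and -0.21 at its other probe sets above the filter. L1CAM gave 1799 against 837, a ratio of 1.09.

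RGMA, a repulsive ligand of neogenin, gave 83.8 (miR-127-3p) and 344 (control), a log2 ratio of -2.04, and NEO1, which encodes neogenin, was at 0.77. CNTN1, a GPI-anchored contactin, was at -1.35 and at -1.33 at another probe set, and the remaining one, with a dim miR-127-3p signal, was at least 2.49-fold lower. NGFR, a co-receptor for myelin inhibitors, was at 1.07. DCC, the netrin receptor, was below both array medians at its brightest probe set, with 22.4 and 49.7.

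Of 55 cytoplasmic mediators, 47 were above the filter, and their median was -0.04. Of the 47, 2 were at least 2-fold higher and 3 lower, where 5.06% and 8.67% of all genes were. FYN, a Src family kinase that acts below plexins and Ephs, gave 1007 (miR-127-3p) and 4347 (control), a log2 ratio of -2.12, and 4 of its 5 probe sets lay between -2.14 and -1.86. The fifth gave 70.0 against 438, at least 5.24-fold lower. SRGAP3 and SRGAP2, GTPase-activating proteins of the Slit and Robo pathway, were at -1.14 and just past 2-fold lower, while SRGAP1 was at 0.70. ABLIM3, an actin-binding LIM protein, gave 709 against 133, a ratio of 2.40, and ITSN1, an exchange factor tied to EphB receptors, was at 1.07 with 3 probe sets between 1.03 and 1.17. NGEF, the exchange factor ephexin that acts below EphA receptors, was at -0.96. VAV2 and VAV3 were at 0.98 and 0.86. The GTPases RAC1, CDC42 and RHOA were at 0.26, 0.23 and -0.13. Over both lists 11 of 61 genes differed at least 2-fold, where 13.7% of all genes did.

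**Figure D4:**
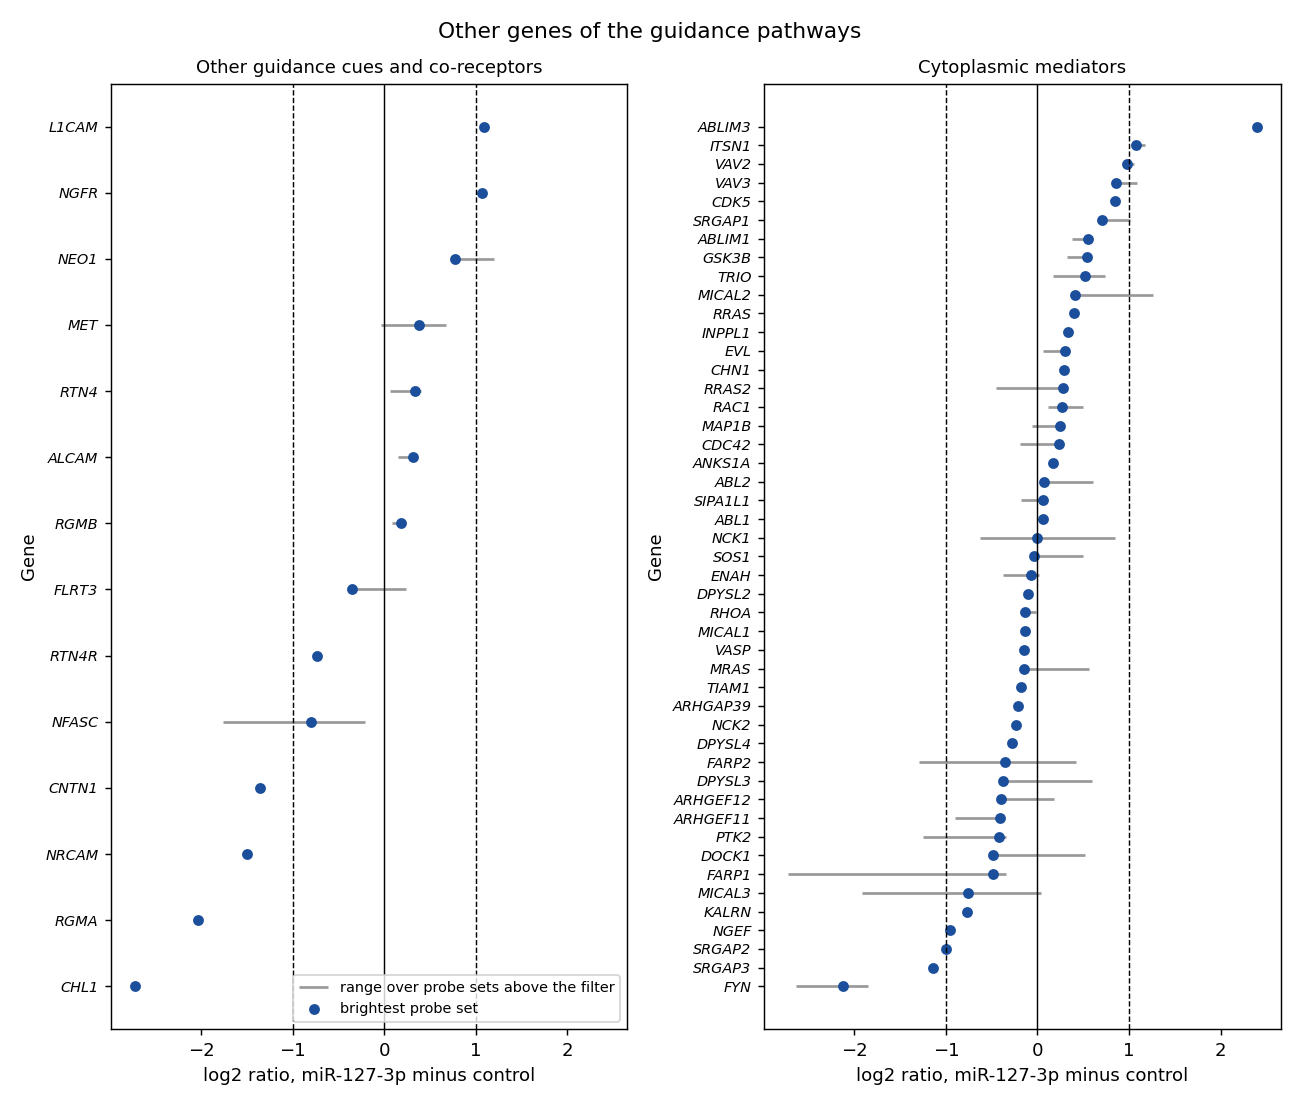
Log2 ratio, miR-127-3p minus control, of genes above the filter in the lists of 26 further cues and co-receptors (left) and 55 cytoplasmic mediators (right), with points for the brightest probe set, grey lines for the range over probe sets, signals under an array median as measured, and dashed lines at 2-fold. CHL1, RGMA, NRCAM, CNTN1, FYN, SRGAP3 and SRGAP2 lie past 2-fold to the left, SRGAP2 at the line, and ABLIM3, L1CAM, ITSN1 and NGFR past it to the right.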

How the data were processed

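The deposited table holds 1 signal intensity per probe set for each of 2 arrays; how the authors summarised probes or corrected background is not given in the sources used here. Per the labels' protocols, Trizol RNA was labelled with an Affymetrix 3′ kit. A common scale was judged from the values. GEO's platform annotation named 41091 of 54613 non-control probe sets with 1 symbol, 1801 with several and 11721 with none, and Entrez identifiers updated 99.9% of the first through the RefSeq table of GRCh38.p14. Signals became log2(signal + 1). Where a signal was under its array's median, the fold is a lower limit against that median, which was chosen here and is no detection call. Groups came from the genotype labels, with 1 array each, so calls are a fixed 2-fold size and no test was run. Intensity precision is limited by the number of arrays.

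Named genes were all members past 2-fold, the 2 brightest of each family, ligand and receptor partners and genes with discordant probe sets; of the pathway lists, up to 4 per direction. All other members given with values and the single marker genes were added after their values were seen. So were NEO1, NFASC, DCC, SRGAP1, NGEF, VAV2, VAV3, RAC1, CDC42 and RHOA. With the 4 per direction counted over both pathway lists together, CNTN1, SRGAP3 and SRGAP2 also fall outside the rule. Members and lists were chosen with earlier results of these data known. Alternatives were a 1.5-fold or 3-fold threshold, 4 other filters, 4 other scalings (loess span 0.3), pseudocounts of 16 and 32, the mean of probe sets, no cross-match suffix, and dim signals at the array median. Chosen after seeing the data were a filter on at least 1 array with dim signals at the median, and leaving out genes matched by name only. The procedure was tested on simulated data, averaged over 5 draws after 1 draw alone had missed the set tolerance. Python 3.11.15, numpy 2.4.6, pandas 2.3.3, statsmodels 0.14.6 and matplotlib 3.10.9 were used.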

Additional observations from a re-analysis of the deposited data

How the results depend on the processing

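No paired analysis was possible because each group has 1 array, and leaving out an array was not possible for the same reason. Against 4 members higher and 7 lower, and 11 pathway genes past the threshold, a 1.5-fold threshold gave 8, 15 and 21, and a 3-fold threshold gave 0, 2 and 4. Beside them 14.5% of all genes were higher and 18.1% lower by 1.5-fold, and 1.57% and 3.94% by 3-fold. In either direction, beside the counts of 61 pathway genes, 32.6% of all genes differed by 1.5-fold and 5.51% by 3-fold. Without a filter the counts were 7, 18 and 18, with 12.8% of all genes higher and 17.2% lower. With a filter at the 75th percentile they were 1, 1 and 5, from 22 members that entered, with 3.31% of all genes higher, 4.95% lower and 8.26% either. A filter on at least 1 array gave 12 of 51 members lower, with 11.8% of all genes lower. The Eph receptor median of -0.92 moved to -1.06 without a filter, to -1.09 at the 75th percentile with 2 genes left, and to -0.80 without cross-match suffixes. The other counts under the alternatives were within 1.5 times those reported, and the other medians within 0.1. Of the 11 members past 2-fold, 9 stayed past it under every alternative that gave a value, while EPHA4 and SEMA3G did not. Of 466 values of 35 named members, 6 moved by more than 0.41 and none past 2-fold reversed. PLXNA1, which was within 2-fold, went from -0.66 to 0.51 without cross-match suffixes. Low signal over background limits the genes near the array medians.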

Other observations

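Of 8 neuronal markers, 3 were above the filter and all 3 had log2 ratios above 0, where 5992 of all 11985 genes did. Of the 3, 1 was at least 2-fold higher, where 5.06% of all genes were. The remaining neuronal markers were below both array medians at their brightest probe sets. SNAP25, a synaptic vesicle fusion protein, gave 2023 (miR-127-3p) and 883 (control), with 3 probe sets between 0.74 and 1.24. MAP2, a dendritic microtubule protein, was at 0.73 and TUBB3, a neuronal tubulin, at 0.43. In the astroglial and glioma list, 11 of 14 were above the filter. Of these, 1 was at least 2-fold higher and 2 lower, where 5.06% and 8.67% of all genes were. SLC1A3, a glutamate transporter of astrocytes, was the higher one. Its control signal was under the array median, so a higher value followed from passing the filter. SOX2, a transcription factor of neural progenitors, gave 1656 (miR-127-3p) and 3893 (control), with log2 ratios of -1.24 and -1.44 at its 2 probe sets. NES, which encodes nestin, was at -1.03, and at -0.46 at its second probe set. The other 8 stayed within 2-fold, from -0.70 for BCAN to 0.47 for CD44.

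A probe set annotated to both SEMA3B and a microRNA gene was no member because it has several symbols. It gave 552 (miR-127-3p) and 774 (control), a log2 ratio of -0.50, while the SEMA3B probe set with 1 symbol was below both array medians at 5.33 and 16.1.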
